A study of Homo sapiens with 4 samples.

Results

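The genes described here are 10 mitotic kinases and regulators of the G2 to M transition: CDK1, CCNB1, CCNA2, PLK1, AURKA, AURKB, BUB1, CDC20, TOP2A and NUSAP1. They were chosen by name, with earlier results of these data known, and all 10 were among the 14416 genes of the input table. The study treated OMM2.3 cells, a human uveal melanoma line labelled wt, with meclofenamic acid (MA) over 24 h, and control cells with DMSO (NC). The compound is an anti-inflammatory drug and also an inhibitor of FTO, an enzyme that removes N6-methyladenosine (m6A) from RNA. The labels give no dose. Each condition had 1 input library, which gives transcript levels, and 1 library of RNA bound by an antibody to m6A (RIP), which gives a list of peaks.

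No group had a replicate, so there is no test and no spread between cultures, and each difference describes these libraries of 1 cell line. The totals behind the per-million scale, recovered from the deposited values, were 41630895 in the MA input and 37041597 in the NC input. All 7 melanocyte markers (PMEL, MLANA, TYR, TYRP1, DCT, MITF and SOX10) were above 1 FPKM in both inputs, with sums of 3172 FPKM in MA and 7307 FPKM in NC. Of the markers of other cell types, the fibroblast gene LUM (1 of 8; 12.03 FPKM in MA, 4.96 FPKM in NC) and the immune gene CD68 (1 of 6; 89.9 FPKM in MA, 111 FPKM in NC) reached 1 FPKM, and none of the 4 endothelial or 5 epithelial markers did. The part of any of these in the differences below was not tested.

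Entry into mitosis is driven by the kinase CDK1 bound to cyclin B1 (CCNB1), after cyclin A2 (CCNA2) has acted through S phase and G2. The polo kinase PLK1 and the aurora kinases then mature the centrosomes and attach the chromosomes, BUB1 signals unattached kinetochores, and CDC20 activates the ubiquitin ligase that ends mitosis. Transcripts of these genes are low in G1 and accumulate toward mitosis, and many of their promoters carry a cell cycle homology region (CHR) that is bound by the DREAM and MMB complexes, together with CCAAT boxes bound by NF-Y. In bulk RNA a larger share of cells in G2 or M and more RNA per cell cannot be told apart.

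TOP2A, BUB1, NUSAP1 and CDK1 were higher in MA than in NC by 2-fold or more, CCNA2 was higher by less, and PLK1 and the aurora kinases lay near their NC levels. Differences are log2((MA FPKM + 1)/(NC FPKM + 1)), taken over 10564 genes that reached 1 FPKM in either input. A gene was counted as higher or lower at 2-fold or beyond. By this measure 4 of the 10 genes were higher, against 10.3% of all tested genes. None of the 10 was lower by 2-fold, against 2.98% of all. Over all tested genes 1087 were higher and 315 lower, and 756 were higher and 439 lower when differences were centred on their median. The median difference of the 10 genes was 0.62, against 0.11 over all tested genes, and 9 of 10 were above 0, against 56.7% of all. Relative to the median of all genes, the median of the 10 was 0.50.

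**Figure D1:**
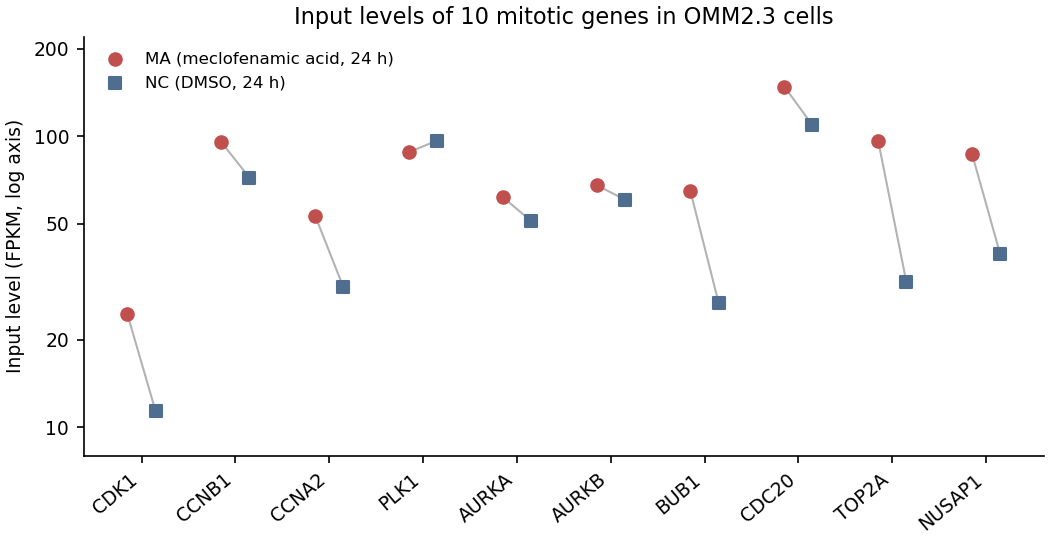
Input levels (FPKM, log axis) of the 10 genes, 1 library per condition, with MA as circles and NC as squares joined by a line. The steepest lines are those of TOP2A (96.8 FPKM in MA, 31.7 in NC) and BUB1 (64.7 in MA, 26.8 in NC), and only the line of PLK1 is higher at NC.

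Promoter windows are shown for 7 of the genes, since the CHR and CCAAT boxes are what such genes are known to share, whether they were 2-fold higher (CDK1, TOP2A, NUSAP1 and BUB1) or not (CCNA2, CDC20 and PLK1). RefSeq promoters (GRCh38.p14, 250 bases before to 50 after the start) matched 9 of the 10 genes, all except AURKA, in 11 promoters. CDK1 and AURKB have a pair of overlapping entries each. In the windows that follow, the CHR core and CCAAT or its reverse ATTGG are in capitals, and each line reads 5′ to 3′ on the strand of the gene. Core here means a match of letters, and whether a match acts as the CHR was not tested. The core is TTTGAA for CDK1, TOP2A, NUSAP1, PLK1 and CDC20. For CCNA2 and BUB1 it is a variant, CTTGAA and TTCGAA. The 7 genes and the spelling shown for each were picked by hand. Not shown are CCNB1, with another spelling, TTTAAA, at position -30 and CCAAT at -87 and -55, and AURKB, with CCAAT only. Where a promoter held several matches, the window shows the sense match nearest the start. CDK1, TOP2A, CDC20 and CCNA2 had others of the same letters that are not shown. TOP2A also had CTTGAA on the other strand at position -18, nearer the start than the TTTGAA shown, at -194. The windows of NUSAP1 and BUB1 are short because their core lies after the start.
CDK1 (chr10:60778411-60778477, plus strand): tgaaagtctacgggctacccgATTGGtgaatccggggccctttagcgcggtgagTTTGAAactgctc
TOP2A (chr17:40418075-40418144, minus strand): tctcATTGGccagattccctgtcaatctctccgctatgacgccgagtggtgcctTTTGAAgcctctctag
NUSAP1 (chr15:41332882-41332911, plus strand): tggcgccagggaTTTGAAccgcgctgacga
BUB1 (chr2:110678045-110678074, minus strand): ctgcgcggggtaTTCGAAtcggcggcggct
CCNA2 (chr4:121823896-121823965, minus strand): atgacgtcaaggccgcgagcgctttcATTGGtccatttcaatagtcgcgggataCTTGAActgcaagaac
CDC20 (chr1:43358862-43358931, plus strand): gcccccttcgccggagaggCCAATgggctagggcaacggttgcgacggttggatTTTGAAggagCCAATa
PLK1 (chr16:23678806-23678875, plus strand): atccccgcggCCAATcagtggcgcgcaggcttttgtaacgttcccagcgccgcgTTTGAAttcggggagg

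Among the drivers of mitotic entry, CDK1 itself had the largest difference. CDK1 was at 24.5 FPKM in MA and 11.4 FPKM in NC, from at least 3469 reads in MA and 1436 in NC. The ratio was 2.15-fold, with an exact 95% interval of 2.02 to 2.29 that covers counting error only. Its log2 difference was 1.04, and 0.93 relative to the median of all genes, so the 2-fold call of CDK1 was lost when differences were centred on that median. CCNA2 was at 53.5 FPKM in MA and 30.4 FPKM in NC, a ratio of 1.76-fold (1.68 to 1.84). CCNB1 was at 95.6 FPKM in MA and 72.1 FPKM in NC, a ratio of 1.33-fold (1.28 to 1.37). The catalytic subunit thus differed by more than either of its cyclins, and the intervals of the 3 ratios did not overlap.

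The polo and aurora kinases differed least. PLK1 was at 88.3 FPKM in MA and 96.8 FPKM in NC, a ratio of 0.912-fold (0.872 to 0.954). It was the only one of the 10 that was lower in MA. AURKA, the kinase of centrosomes and spindle poles, was at 61.8 FPKM in MA and 51.3 FPKM in NC, a ratio of 1.21-fold (1.15 to 1.27). AURKB, the kinase of the chromosomal passenger complex, was at 68.0 FPKM in MA and 60.7 FPKM in NC, a ratio of 1.12-fold (0.914 to 1.38), whose interval includes equal levels. That interval is wide because the smallest whole reads that give its values were 218 in MA and 173 in NC. The true numbers may be multiples of these, which would narrow the interval, so equal levels are not shown by it. Relative to the median of all genes, the log2 differences were -0.24 for PLK1, 0.15 for AURKA and 0.05 for AURKB.

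The checkpoint kinase BUB1 differed more than CDC20, the activator that the checkpoint holds back. BUB1 was at 64.7 FPKM in MA and 26.8 FPKM in NC, from at least 10138 reads in MA and 3737 in NC. The ratio was 2.41-fold (2.32 to 2.51) and the log2 difference 1.24, above 95.3% of all tested genes. CDC20 was the most abundant of the 10 per length in both inputs, at 148 FPKM in MA and 109 FPKM in NC. Its ratio was 1.36-fold (1.32 to 1.40).

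The genes of chromosome and spindle structure were both higher by 2-fold. TOP2A, the topoisomerase that untangles sister chromatids, was at 96.8 FPKM in MA and 31.7 FPKM in NC, from at least 23461 reads in MA and 6841 in NC. The ratio of 3.05-fold (2.97 to 3.14) was the highest of the 10, and its log2 difference of 1.58 lay above 98.7% of all tested genes. NUSAP1, a protein that bundles spindle microtubules around chromosomes, was at 87.3 FPKM in MA and 39.5 FPKM in NC. Its ratio was 2.21-fold (2.13 to 2.29), from at least 11545 reads in MA and 4651 in NC.

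**Figure D2:**
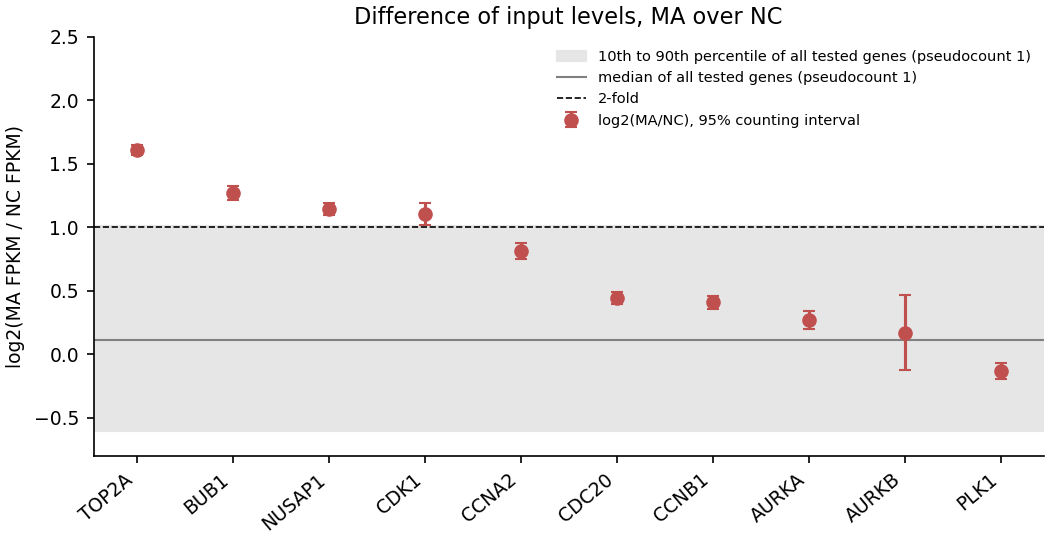
Log2 ratio of MA over NC input FPKM for each of the 10 genes, without a pseudocount, with 95% counting intervals. The grey band is the 10th to 90th percentile of all tested genes (-0.60 to 1.01, pseudocount 1). TOP2A (1.61), BUB1 (1.27), NUSAP1 (1.14) and CDK1 (1.10) stand above the dashed 2-fold line and PLK1 (-0.13) is lowest.

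The order of the 10 levels therefore differed between the inputs. From high to low per length, the MA order was CDC20, TOP2A, CCNB1, PLK1, NUSAP1, AURKB, BUB1, AURKA, CCNA2 and CDK1. In NC it was CDC20, PLK1, CCNB1, AURKB, AURKA, NUSAP1, TOP2A, CCNA2, BUB1 and CDK1. TOP2A was at rank 2 in MA and rank 7 in NC. In MA the counting intervals of TOP2A and CCNB1, of PLK1 and NUSAP1, of AURKB and BUB1, and of BUB1 and AURKA overlapped, as did those of CCNB1 and AURKB, AURKB and AURKA, and TOP2A and CCNA2 in NC. The intervals of AURKB rest on its smallest whole reads, at a length of 77 bp, although its NC peak alone had 149 exonic bp. They are therefore too wide, and the overlaps of AURKB may come from the recovery of reads.

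The difference went with the minimum length recovered for each gene. The 5 genes with minimum recovered lengths of 2748 to 5823 bp (CDK1, CCNA2, BUB1, NUSAP1 and TOP2A) had log2 differences of 0.79 to 1.58. The other 5, at 77 to 2029 bp, had differences of -0.13 to 0.44. For every gene this is the smallest length that gives whole reads and can be a fraction of the transcript, as the 77 bp of AURKB is. Over all tested genes such lengths began at 10 bp. Some genes may therefore lie in a shorter group than their transcripts would. Over all tested genes cut into 3 equal groups by this length, the median difference was -0.04, 0.11 and 0.28 from short to long. The share at least 2-fold higher was 6.62%, 11.3% and 12.98%. Relative to the median of its own length group, TOP2A was at 1.30, BUB1 at 1.13, NUSAP1 at 1.01 and CDK1 at 0.93, while PLK1 was at -0.09 and the other 5 at 0.20 to 0.69. The part of length in the differences was not tested.

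Neighbouring and related genes limit single values. The strand setting of the authors' counting is not given in the sources used here. CCNA2 overlaps EXOSC9, a subunit of the RNA exosome, which was at 35.02 FPKM in MA and 18.8 FPKM in NC. PLK1 overlaps ERN2. AURKA, AURKB, BUB1 and CDC20 have annotated pseudogenes named after them, so their reads may be split.

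The other genes of mitosis were taken as 7 lists with 126 tested genes, also chosen with earlier results of these data known. Of the 126, 47 (37.3%) were higher by 2-fold or more, against 10.3% of all tested genes. None was lower by as much, against 2.98%, and 104 (82.5%) were above 0, against 56.7%. The count of 47 was 38 relative to the median of all genes and 32 relative to that of the length group. Over all tested genes the count of 1087 became 756 and 707 by these measures. The median of the 126 genes was 0.57, against 0.11 over all tested genes. Within the same 3 groups of minimum length, which may misplace some genes, the medians of the 126 genes were 0.44 (28 genes), 0.49 (51) and 1.01 (47).

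Kinetochore, chromosome and spindle lists were highest, beside 10.3% of all tested genes at 2-fold or more. That share is 1087 of 10564 genes at the main settings. The count over all genes was 756 relative to their median, 707 relative to that of the length group and 273 with a pseudocount of 5. The spindle checkpoint and kinetochore list had a median of 1.14. Of its genes, 12 of 20 were higher by 2-fold, and 8 with a pseudocount of 5 or relative to the median of the length group. Its top genes were the kinesin CENPE (12.6 FPKM in MA, 3.18 in NC, log2 difference 1.71), the kinetochore subunit NDC80 (51.4 in MA, 15.3 in NC, 1.68) and the checkpoint kinase TTK (17.0 in MA, 4.73 in NC, 1.65). Of the condensin and chromosome list, 11 of 19 were higher by 2-fold, with a median of 1.07. This count was 7 relative to the median of all genes, 5 relative to the median of the length group and 5 with a pseudocount of 5. NCAPG, of condensin I, was at 55.1 FPKM in MA and 18.5 FPKM in NC (1.53). The condensin core subunit SMC4 was at 59.4 FPKM in MA and 20.4 FPKM in NC (1.50), and the cohesin subunit STAG2 at 27.0 FPKM in MA and 10.2 FPKM in NC (1.32). Of the spindle and cytokinesis list, 11 of 20 were higher by 2-fold, with a median of 1.04 and all 20 above 0. The count of 11 was 9 with a pseudocount of 5 or relative to the median of all genes. It was 8 relative to the median of the length group. KIF18A, a kinesin that shortens kinetochore microtubules, was at 11.3 FPKM in MA and 2.93 FPKM in NC (1.64), CKAP2 at 37.6 FPKM in MA and 12.6 FPKM in NC (1.50), and the motor KIF11 at 15.9 FPKM in MA and 5.21 FPKM in NC (1.44).

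Partners of the kinases were mixed, beside 10.3% of all tested genes at 2-fold or more (1087 of 10564, and 273 with a pseudocount of 5). Of the partners of aurora and polo kinases, 5 of 15 were higher by 2-fold (2 with a pseudocount of 5), with a median of 0.55. PLK4, the kinase of centriole duplication, was at 17.6 FPKM in MA and 5.32 FPKM in NC (1.56). The shugoshins SGO2 (9.47 FPKM in MA, 2.64 in NC, 1.53) and SGO1 (11.7 in MA, 3.87 in NC, 1.38) protect cohesion at centromeres. Of the CDK1 regulators, 3 of 17 were higher by 2-fold, with a median of 0.42. The highest, GADD45A (210.2 FPKM in MA, 47.5 in NC, 2.12), is a stress gene whose protein inhibits CDK1. MASTL, a kinase that restrains the opposing phosphatase PP2A, was at 14.1 FPKM in MA and 3.93 FPKM in NC (1.61), and MNAT1, of the CDK-activating kinase, at 13.4 FPKM in MA and 4.90 FPKM in NC (1.29).

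Of the transcription factors of the G2/M program, 3 of 15 were higher by 2-fold (0 with a pseudocount of 5), with a median of 0.35. Over all tested genes the share was 10.3%, or 1087 of 10564. That count was 273 with a pseudocount of 5 and 756 relative to the median of all genes. LIN54, the subunit that binds the CHR, was at 9.55 FPKM in MA and 2.61 FPKM in NC (1.55). RBL1, the pocket protein p107, was at 13.2 FPKM in MA and 4.34 FPKM in NC (1.42), and LIN9 at 4.23 FPKM in MA and 1.52 FPKM in NC (1.05, and 0.94 relative to the median of all genes). Of the anaphase-promoting complex list, 2 of 20 (10%) were higher by 2-fold, near the share of all tested genes. They were the subunit CDC27 (17.4 FPKM in MA, 7.20 in NC, 1.17) and the inhibitor FBXO5 (13.1 in MA, 5.83 in NC, 1.04). Relative to the median of all genes FBXO5 was at 0.93, which left 1 of 20, and with a pseudocount of 5 none of the 20 was. Its median of 0.13 was close to that of all genes, and the subunit ANAPC4 was at 8.27 FPKM in MA and 4.53 FPKM in NC (0.75). The S phase list had a median of 0.01. Of its 23 genes, 1 was higher by 2-fold, the polymerase subunit POLA1 (10.4 FPKM in MA, 4.63 in NC, 1.02), which was at 0.91 relative to the median of all genes. The flap endonuclease FEN1 was at 45.1 FPKM in MA and 76.8 FPKM in NC (-0.76), and the ribonucleotide reductase subunit RRM1 at 58.6 FPKM in MA and 35.7 FPKM in NC (0.70).

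**Figure D3:**
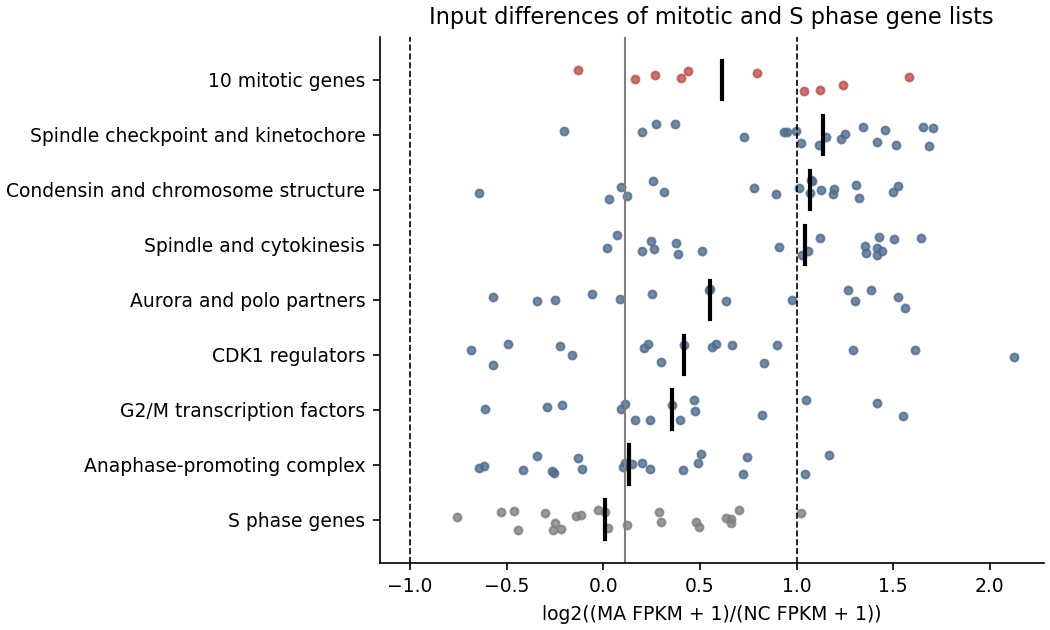
Log2 input difference, MA over NC with a pseudocount of 1, of each tested gene in 9 lists, 1 dot per gene, with the list median as a black bar. The grey line is the median of all tested genes (0.11) and dashed lines mark 2-fold. The kinetochore (1.14), chromosome (1.07) and spindle (1.04) lists have medians beyond 2-fold, and the S phase list (0.01) lies at 0. Relative to the median of all genes, the kinetochore, chromosome and spindle medians are 1.02, 0.96 and 0.93.

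Among the promoters of the 10 genes, TTTGAA, searched on both strands, was in 6 of the 11 promoters, of 5 genes, against 15.2% of 35116 promoters in the table. CCAAT on either strand was in all 11, against 34.6%. A further 3 spellings of the core were added after the sequences were seen. CTTGAA was in promoters of CCNA2 and TOP2A (11.2% of all promoters), TTCGAA in that of BUB1 (1.45%), and TTTAAA in those of CDK1, CCNB1, PLK1 and NUSAP1 (12.2%). At least 1 of the 4 spellings was in 9 of the 11 promoters, against 32.2% of all promoters, and in 8 of the 9 genes, against 36.7% of all genes. Since 3 of the spellings were taken from these promoters, that count is partly fixed by their choice. AURKB had none. No match of a CHR spelling overlapped a CCAAT match in these promoters. The core printed above began at position -13 in CDK1, -28 in CCNA2, -29 in PLK1, -65 in CDC20 and -194 in TOP2A, where -1 is the last base before the start. It began at 2 in BUB1 and 14 in NUSAP1, where 1 is the start.

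PLK1 and CDC20 have a TTTGAA match, as TOP2A and CDK1 do, and were not 2-fold higher. Over the 8698 tested genes with a promoter in the table, those with TTTGAA (1152) had a median input difference of 0.31 and 15.5% were at least 2-fold higher. Those without it (7546) had a median of 0.09 and 9.57%. With TTTGAA and CCAAT together (489 genes) the median was 0.38 and the share 18.2%. Per gene, 18.2% of 27305 genes had TTTGAA, against 15 of 19 in the spindle and cytokinesis list, 10 of 17 in the condensin list, 6 of 11 partners of aurora and polo kinases and 9 of 17 in the kinetochore list. It was in 7 of 16 CDK1 regulators, 5 of 12 transcription factors, 6 of 19 genes of the anaphase-promoting complex list and 1 of 20 in the S phase list. Of the melanocyte markers, whose median input difference was -1.33, 2 of 5 had it. These are matches of letters, not binding sites. The split by TTTGAA keeps the mitotic genes and does not account for transcript length. The part of the motif in the input differences was not tested.

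m6A peaks were called in some of the 10 genes only, and most of those peaks had a low fold enrichment. The MA list held 9 peaks in 5 of the 10 genes and the NC list 7 peaks in 5, of 19929 peaks in MA and 22067 in NC. Among genes within the range of the 10 in the matching input (24.5 to 148 FPKM in MA, 11.4 to 109 FPKM in NC), 71.7% had a MA peak and 82.6% a NC peak. Fold enrichment of RIP over input is the authors' value for each peak, used here only within its own list, whose medians were 3.07 in MA and 3.57 in NC. Of the MA peaks, 8 of 9 lay below that median, and of the NC peaks, 5 of 7. All positions are on GRCh38.p13, features are as the authors annotated them, and spans include introns.

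CDK1, CCNB1, PLK1 and CDC20 had no peak in either list. Among the 1997 genes within the range of the 10 in both inputs, 18.6% had none. CDC20 was the most abundant of the 10 in both inputs, PLK1 was at rank 4 in MA and rank 2 in NC, and CDK1 was at rank 10 in both. In the 7 mitotic lists, 12 of 126 genes (9.52%) had no peak in either list, against 12.7% of all 10564 tested genes. Partners of CDK1 among them were the cyclin CCNB2 (82.7 FPKM in MA, 51.7 in NC), the small subunits CKS1B (117 in MA, 77.9 in NC) and CKS2 (215 in MA, 175 in NC), and the inhibitory kinase PKMYT1 (51.1 in MA, 59.7 in NC). The enzymes UBE2C (165 FPKM in MA, 152 in NC) and UBE2S (121 in MA, 133 in NC), which work with the complex that CDC20 activates, had none either. The other genes without a peak were ANAPC16, BUB3, CDC23, CENPA, E2F5 and MAD2L1. Most genes of these kinds had peaks in both lists: 13 of 17 CDK1 regulators and 15 of 20 in the anaphase-promoting complex list. The genes without a peak were named after their values were seen.

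AURKA, BUB1, CCNA2 and TOP2A had peaks in both lists, and each of their 6 MA peaks overlapped one of their 6 NC peaks on the same strand (1 bp of span or more). When 50% of both spans had to be shared, 4 of 6 did, without the CCNA2 pair and the TOP2A pair at the 3' end. Overlap at 1 bp was common over all genes, with 17684 pairs of the same gene and strand among 19929 MA and 22067 NC peaks. A peak can be in more than 1 pair, so these pairs are not a share of peaks. The share of all peaks that overlapped was not computed at 1 bp or at 50%. The counts of 6 and 4 are therefore not shown to be particular to these genes. When the NC list was cut to the 19929 peaks of highest fold, the NC peak of CCNA2 and the NC exon peak of BUB1 left it, and 3 genes had peaks in both lists. TOP2A had the most exonic bp in 1 peak. That exon peak on chromosome 17 ran from 40392308 to 40400356 in MA (1146 exonic bp, fold 2.72) and from 40392308 to 40399966 in NC (897 exonic bp, fold 4.74). These folds lay above 38.4% of MA peaks and 68.4% of NC peaks. A further TOP2A peak ran from 40389470 to 40391576 in MA, annotated at the stop codon (449 exonic bp, fold 1.84), and from 40389421 to 40390136 in NC, annotated to the 3' UTR (399 exonic bp, fold 2.28). The pair shared 667 bp of span.

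AURKA had 1 peak in each list, in the 3' UTR on chromosome 20, from 56369885 to 56370622 in MA (594 exonic bp, fold 3.25) and to 56370524 in NC (496 exonic bp, fold 4.39). It was the only MA peak of the 10 genes above the median fold of its list.

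BUB1 had a start codon peak on chromosome 2 that ran from 110672755 to 110678063 in MA (396 exonic bp, fold 2.11) and from 110672854 to 110678063 in NC (297 exonic bp, fold 2.48). Its exon peak ran from 110661829 to 110667702 in MA (347 exonic bp, fold 1.84) and from 110659988 in NC to the same end (643 exonic bp, fold 1.79). The CCNA2 exon peak on chromosome 4 ran from 121820641 to 121822515 in MA (351 exonic bp, fold 1.72) and to 121821004 in NC (151 exonic bp, fold 1.84). Of these 6 pairs, 5 were longer in exonic bp in MA, and the exon peak of BUB1 was longer in NC. Over all 17684 overlapping pairs of the lists, 47.7% were longer in MA, 40.4% in NC and 11.8% equal.

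NUSAP1 had peaks in the MA list only and AURKB in the NC list only. The NUSAP1 peaks on chromosome 15 were annotated to the 5' UTR (41349117 to 41350186, 199 exonic bp, fold 1.93, and 41351079 to 41365419, 299 exonic bp, fold 1.62) and to an exon (41375803 to 41380157, 200.0 exonic bp, fold 1.77). Their folds exceeded 12.7%, 3.12% and 7.69% of MA peaks, although the authors' false discovery rates were as low as 1.58e-13. The AURKB peak on chromosome 17, from 8207785 to 8209985 (149 exonic bp, fold 2.23), was annotated to the 5' UTR and had a false discovery rate of 0.000851. Of the 1997 genes of like level, 3.56% had a peak in MA only and 7.76% in NC only. The input of NUSAP1 was 2.21-fold higher in MA, and that of AURKB 1.12-fold. With 1 list per condition, a peak in a single list is not shown to be a difference in methylation.

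**Figure D4:**
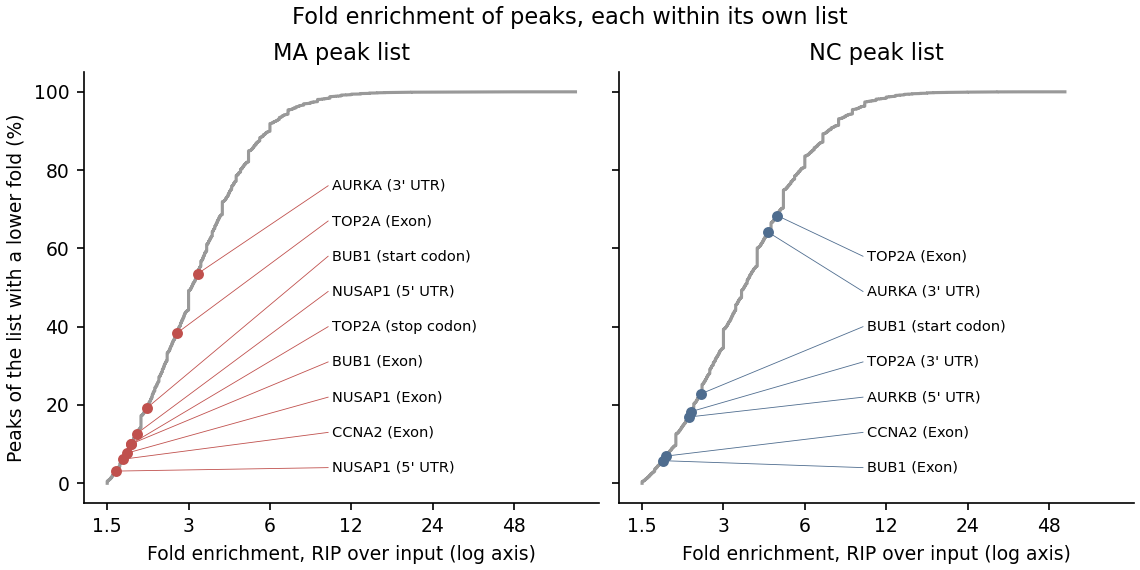
Cumulative share of peaks (%) against fold enrichment of RIP over input (log axis) in the MA list and the NC list, with the peaks of the 10 genes as dots on each curve. In MA all dots but AURKA (3.25) lie below the list median of 3.07, and in NC all but TOP2A (4.74) and AURKA (4.39) lie below 3.57.

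**Figure D5:**
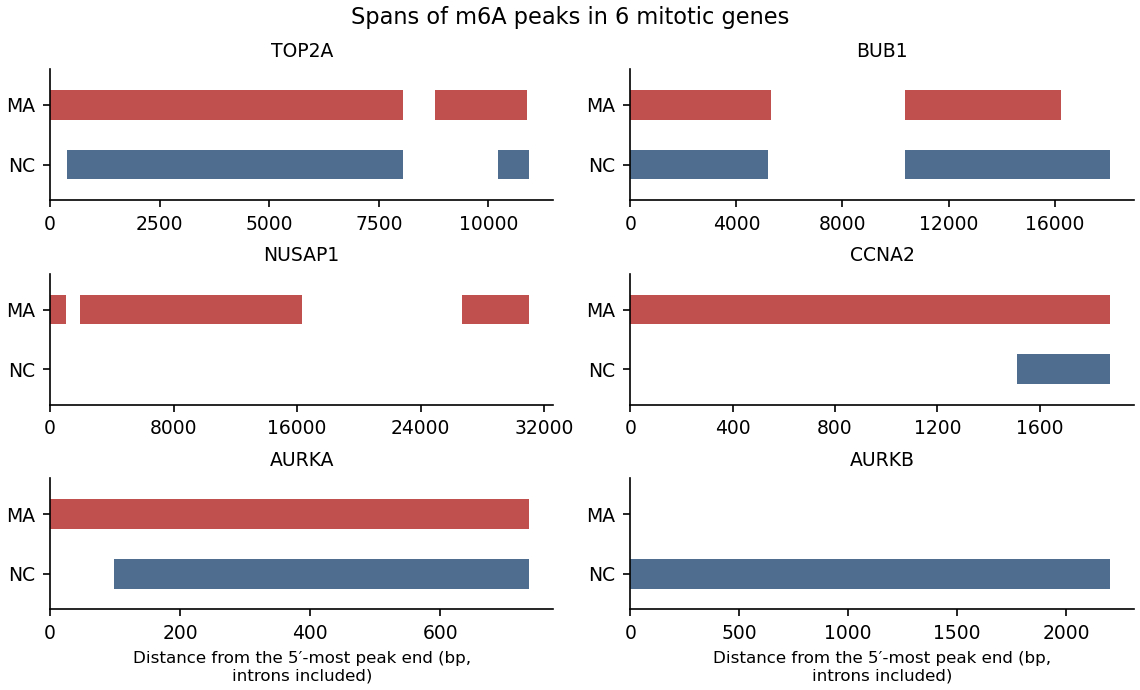
Spans of the peaks of 6 genes in the direction of transcription, introns included, with MA above NC. The x axis is the distance in bp from the 5′-most peak end. TOP2A, BUB1, CCNA2 and AURKA have overlapping bars in both rows, NUSAP1 has 3 bars in MA and AURKB 1 bar in NC.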

How the data were processed

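Input levels are FPKM as deposited by the authors, with 1 value per gene for MA and 1 for NC. Each peak's fold enrichment is a ratio of RIP over input deposited by the authors. Its p-value and false discovery rate come from the authors too, per the file headers. The log10 columns deposited by the authors, whose values pass the usual log range and were recorded as a score, were not used. Tools named in the submitters' processing notes are ChIPseeker, deepTools, HISAT, HISAT2 and Trimmomatic, with the build GRCh38.p13. For their versions, the counting of reads and the peak calling, no details were given in the sources used here. A protocol in the labels describes frozen tissue, while the samples are labelled as a cell line.

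The 10 genes and all lists were chosen with earlier results of these data known. Reads were recovered from the FPKM values as the smallest whole numbers (tolerance 0.0001) that gave a whole length in both inputs. Of 13055 genes above 0 in both inputs, 99.9% resolved, against 0.1% of 1000 genes after a small shift of the values. The totals were first estimated as those at which the most genes (116, against 25 at the next best total) had a length equal to their RefSeq span. Of the whole numbers next to these estimates, those at which the most genes of a random sample resolved were used. Intervals of ratios are exact 95% binomial (Clopper-Pearson) and those of levels exact Poisson. Both cover counting error only, since PCR copies cannot be told from separate molecules. The main settings were a pseudocount of 1, a filter of 1 FPKM and a 2-fold threshold. Repeated rows of a peak were counted a single time (99 in MA, 132 in NC), starts were raised by 1, and peaks were shared at 1 bp of span on the same strand. All 10 genes were named, with their highest peak in each list and every peak without an overlap, and in each gene list the 3 genes with the largest absolute difference. The other peaks of the 10 genes were added to this rule. The calculations used Python 3.11.15 with numpy 2.4.6, pandas 2.3.3 and scipy 1.17.1 and were tested on simulated data.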

Additional observations from a re-analysis of the deposited data

How the results depend on the processing

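No paired analysis was possible because each group had 1 library, so no library could be left out either. All 10 log2 differences kept their sign under 7 other settings, but only TPM and the centrings could have changed it. A pseudocount cannot change a sign, and the filters left the values of these genes as they were. Of the 70 recomputed differences of single genes, 28 moved by at least 50% of the width of that gene's counting interval. The count of 4 genes at 2-fold became 3, without CDK1, with a pseudocount of 5 or with centring on the median of all genes or of the length group, the last chosen after seeing the data. Their median of 0.62 was 0.70 as TPM and 0.50 centred on all genes. Of the 7 mitotic lists, 26 genes were 2-fold higher with a pseudocount of 5, and of the S phase list 0 were so with that pseudocount or with either centring. Over all genes, 1087 were higher and 315 lower at 2-fold, against 756 and 439 centred on all genes and 707 and 442 centred by length. They were 1801 and 450 with a pseudocount of 0.1, 273 and 154 with one of 5, and 1793 and 315 as TPM. A fold enrichment of at least 3 lies near the list medians of 3.07 in MA and 3.57 in NC, so it removes many peaks of all genes. The share of all genes that keep a peak at it was not computed. With that threshold, 1 of the 10 genes had a MA peak and 2 a NC peak. The MA list then held 1 peak and the NC list 2, of which 1 each overlapped, in 1 gene, and 8 genes had no peak. At 50% overlap 4 peaks of each list overlapped, and with equal numbers of peaks 5 NC peaks of 4 genes were left, 4 of them overlapping. An overlap of exonic blocks was not run, since positions of exon blocks were not used here.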

Other observations

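Peaks in a single list were few among the other mitotic genes: 108 of the 126 tested genes had peaks in both lists, 3 in MA only and 3 in NC only, against 427 and 770 of 10564 tested genes. Those in MA only were KNTC1, a kinetochore protein (3 peaks, highest fold 1.86, input 20.2 FPKM in MA and 6.42 FPKM in NC), the cytokinesis regulator ECT2 (1 peak, fold 2, input 26.0 FPKM in MA and 9.54 FPKM in NC) and the condensin subunit NCAPD2 (1 peak, fold 1.68, input 61.8 FPKM in MA and 60.6 FPKM in NC). Those in NC only were LIN37 (fold 2), RBBP4 (fold 1.57) and ANAPC11 (fold 4.5), with 1 peak each. These genes were named after their values were seen.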
